A study of Mus musculus with 8 samples.

Results

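The genes described are 10 members of the carbonic anhydrase and epithelial acid-base transport machinery: the carbonic anhydrases Car1, Car2 and Car4, the anion exchangers Slc26a3 and Slc26a2, the sodium-proton exchangers Slc9a2 and Slc9a3, the sodium-bicarbonate cotransporter Slc4a4, the anion channel Cftr and the sodium-coupled monocarboxylate transporter Slc5a8. They were chosen by name, with earlier results of these data known. A probe for 9 of the 10 was found among the 16306 genes that could be named on the array. No probe matched Slc9a3, which has no value here. All 9 were well above background on all 8 arrays and were tested among 12715 genes. Between middle colon and rectum, 6 of the 9 were higher in rectum (Car2, Car4, Slc26a3, Slc26a2, Slc4a4 and Slc5a8), Car1 was lower, and Slc9a2 and Cftr did not pass the test.

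The colon absorbs sodium chloride by pairing a sodium-proton exchanger with a chloride-bicarbonate exchanger in the apical membrane of surface cells. Carbonic anhydrases supply both exchangers by turning carbon dioxide and water into protons and bicarbonate. Bicarbonate also enters epithelial cells from the blood side through sodium-bicarbonate cotransport and leaves to the lumen through CFTR. Monocarboxylate transporters take up the short-chain fatty acids made by bacteria.

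Mucosa of 4 groups of mice was measured at 2 sites: wild-type (WT) and IL-18 knockout (IL18ko) mice, each as group-housed controls and after individual housing as isolation stress. Sets of 5 brothers shared a cage until 10 to 12 weeks of age, when 3 of them were moved to cages of their own; the isolation lasted 8 days according to the description of the design and 16 days according to the treatment protocol. Controls were taken before isolation, so control and isolated mice also differ by the days that passed. Neither strain nor knockout allele is named in the labels. Colon was the stretch 2.5 to 3.5 cm from the ileocecum, and rectum lay within 7 mm of the anus. Each of the 8 arrays carries RNA pooled in equal amounts from 5 mice, and each combination of site, genotype and housing has 1 array, so no group has a replicate. Whether both sites of a group were sampled from the same animals is not stated in the labels.

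Values are log2 intensities relative to the 75th percentile of the array, and differences between arrays are differences of these. Between 62.2% and 66.4% of spots were well above background on an array. Il18, the targeted gene, stood between 2.68 and 5.81 on the WT arrays and between -8.01 and -7.62 on the IL18ko arrays, where it was not well above background, so it matched the labels. All colon arrays lay on 1 slide and all rectum arrays on another, each with its own scan, and site and slide cannot be told apart. The summed level of 8 general epithelial markers ranged from 1084 to 1212 on the linear scale in colon and from 1182 to 1354 in rectum. Goblet cell markers, 5 of 7 with a probe, summed to 1109 to 1172 in colon and 729 to 875 in rectum. By the tissue test given below, 3 of these 5 were lower in rectum, while Tff3 (-0.008) and Clca1 (-0.12) did not pass. Skeletal muscle markers summed to 2.85 to 4.71 in colon and 5.44 to 107 in rectum. In pooled tissue, fewer cells of a type and less RNA per cell cannot be told apart.

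Promoters of 6 of the 10 members, taken from the RefSeq table for GRCm38.p6, were used here. Those of 3 members that were higher in rectum are shown, because they differ widely in base composition although the genes shared a direction. Each line is the 250 bases before an annotated start, 5′ to 3′, and capitals mark the letters TATAAA.
Slc26a3, chr12:31437969-31438218, plus strand: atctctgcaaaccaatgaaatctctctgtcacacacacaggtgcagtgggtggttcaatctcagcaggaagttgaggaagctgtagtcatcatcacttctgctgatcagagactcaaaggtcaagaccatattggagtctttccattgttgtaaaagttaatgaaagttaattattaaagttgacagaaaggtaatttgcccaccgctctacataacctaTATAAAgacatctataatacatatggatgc
Slc4a4, chr5:88887010-88887259, plus strand: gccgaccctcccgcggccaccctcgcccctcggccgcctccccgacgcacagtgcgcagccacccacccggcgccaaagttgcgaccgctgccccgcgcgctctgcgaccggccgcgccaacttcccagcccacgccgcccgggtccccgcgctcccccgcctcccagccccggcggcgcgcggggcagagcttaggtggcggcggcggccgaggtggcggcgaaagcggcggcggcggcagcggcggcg
Car4, chr11:84957504-84957753, plus strand: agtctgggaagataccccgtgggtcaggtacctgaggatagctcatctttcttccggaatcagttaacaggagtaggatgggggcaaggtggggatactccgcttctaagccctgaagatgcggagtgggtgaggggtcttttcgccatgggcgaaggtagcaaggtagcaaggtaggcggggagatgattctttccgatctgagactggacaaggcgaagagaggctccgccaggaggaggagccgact
The Slc26a3 promoter is 38.8% G and C with 1 CpG, that of Car4 56.4% with 11 CpG and that of the Slc4a4 start shown 82% with 44 CpG. Over all 32536 promoters of this length, the quartiles of G and C content were 45.2%, 52.4% and 61.2%. A second Slc4a4 start, at chr5:89027716-89027965, has 48.8% and 3 CpG. The array probe was not assigned to either start.

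The motifs searched, on both strands, were the caudal core TTTATG or TTTATA, the HNF4 motif CAAAGTCCA, the GATA motif AGATAA, the KLF and SP motif CCCGCCC, and TATAAA. The Slc26a3 window holds TATAAA 30 bases before the start; the same bases read TTTATA on the opposite strand, so the caudal match and the TATA match are 1 site. TATAAA occurs in 12.3% of all promoters and a caudal core in 20.9%. No letters of the 5 motifs occur in the windows of Car4 or of either Slc4a4 start. CCCGCCC, present in 23.6% of all promoters, occurs 5 times before Cftr, 3 times before Slc9a3 and 1 time before Slc5a8. GATA and HNF4 letters, found in 9.97% and 0.387% of promoters, are in none of these windows. Such matches describe the letters only.

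Values for each gene are given in the order WT control, WT stress, IL18ko control and IL18ko stress. The tissue test was limma on 4 differences, each 1 rectum array minus the colon array of the same mouse group. Benjamini-Hochberg adjustment was over all 26265 probes tested. Errors are limma's moderated standard errors of the mean of the 4 differences (SE, n = 4 pairs of arrays). Their variance is drawn toward a trend over all probes tested, so they are not the spread of the 4 differences alone. By this test 30.4% of the 12715 genes differed, 15.1% being higher and 15.3% lower in rectum, against 7 of the 9 members. The median difference was 0.44 over the 9 members and 0.05 over all genes. Because the members were chosen with earlier results of these data known, setting them against all genes is description, not a test of the list. For 7 of the 9 members the colon and rectum arrays did not overlap, as they did not for 33.7% of all genes. With quantile normalization the colon and rectum arrays of Car2 and Slc26a3 did overlap.

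**Figure D1:**
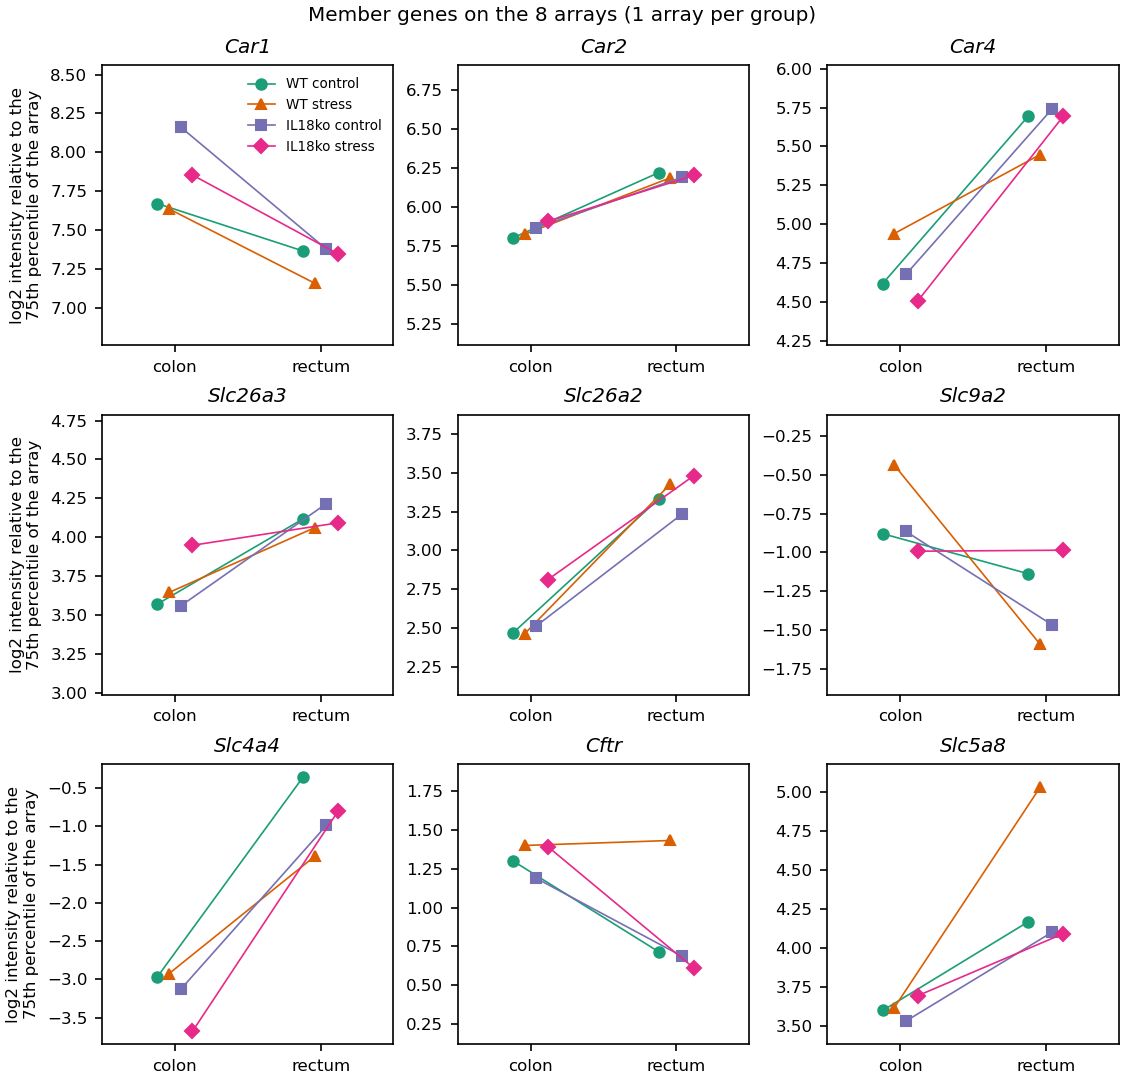
Log2 intensity relative to the 75th percentile of each array for the 9 members with a probe, 1 panel per gene, with a line joining the colon and rectum arrays of the same mouse group; points are single arrays. Car4, Slc26a2 and Slc4a4 are higher in rectum on every line, Car1 is lower on every line, and the rectum arrays of Cftr (its 10-spot probe) and Slc9a2 overlap the colon arrays.

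Among the cytosolic carbonic anhydrases, Car1 and Car2 went in opposite directions. Car1 (chromosome 3), the abundant cytosolic form of colonic surface cells, lay at 7.67, 7.64, 8.16 and 7.85 in colon and at 7.37, 7.16, 7.38 and 7.35 in rectum. All 4 rectum arrays were below all 4 colon arrays, with the IL18ko control colon array the highest. Car1 was 1.43-fold lower in rectum (-0.52 ± 0.10, SE; adjusted p = 0.0109, limma). Without the IL18ko control pair the difference was -0.43 with an adjusted p of 0.0769.

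Car2 (chromosome 3), the fast and widely expressed cytosolic form, lay at 5.80, 5.82, 5.87 and 5.91 in colon and at 6.22, 6.19, 6.19 and 6.20 in rectum. Arrays of 1 site lay close together and the sites did not overlap at this scaling. With quantile normalization they did: rectum ran from 5.91 (WT stress) to 6.31, and colon reached 5.94 (IL18ko stress). Car2 was 1.28-fold higher in rectum (0.35 ± 0.08, SE; adjusted p = 0.0204, limma), but the call was kept in only 1 of the 4 fits that left out a pair, that without the WT stress pair, and the adjusted p reached 0.146 in the others. It was also lost without a background filter (0.0599) and without a trend of variance on level (0.0543). Erythrocytes hold both CAR1 and CAR2 proteins. Summed erythroid markers, 4 of 6 with a probe, ranged from 0.348 to 0.553 in colon and from 3.02 to 6.10 in rectum. Most of each sum was Hba-a1. Hba-a1 was higher by 3.25 and Alas2 by 3.19, while Slc4a1 differed by 0.41 and did not pass (adjusted p = 0.237, limma). The part of erythroid RNA in the Car1 and Car2 values was not tested.

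Car4 (chromosome 11), anchored to the outer face of the apical membrane, lay at 4.62, 4.94, 4.68 and 4.51 in colon and at 5.70, 5.45, 5.74 and 5.70 in rectum. The rectum values were above all colon values, and the WT stress pair was the closest. Car4 was 1.94-fold higher in rectum (0.96 ± 0.13, SE; adjusted p = 0.00266, limma), a call kept in 4 of 4 fits that left out a pair. CAR4 also lines capillaries, and the 5 endothelial markers summed to 0.948 to 1.61 in colon and 0.914 to 1.53 in rectum. Pecam1 (0.41), Cdh5 (0.37), Tie1 (0.35) and Gpihbp1 (0.33) were fitted higher in rectum and Kdr lower (-0.53). None passed the tissue test. The part of capillary RNA in the Car4 value was not tested.

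Of the other 13 carbonic anhydrase genes, 10 were tested: 1 was higher in rectum, 4 were lower and 5 did not pass, with a median difference of -0.54. Car12, a membrane-bound form, lay at 1.51, 1.67, 1.74 and 1.26 in colon and at -2.88, -3.29, -2.73 and -2.83 in rectum (-4.48 ± 0.16, SE; adjusted p = 1.32e-05, limma), and a second probe gave -4.03. Car8, a family member without catalytic activity, differed by -3.94 ± 0.26 and by -3.34 on its second probe. Both were far lower on every rectum array, and with normexp they differed by -3.71 and -3.13. Car11, which is also without catalytic activity, was lower by 1.66-fold and the cytosolic Car13 by 1.55-fold. Car14, a transmembrane form, was 2.29-fold higher. The Car11 call was lost without the WT control pair or the IL18ko control pair and with the deposited ratios, and that of Car13 without the IL18ko control pair.

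**Figure D2:**
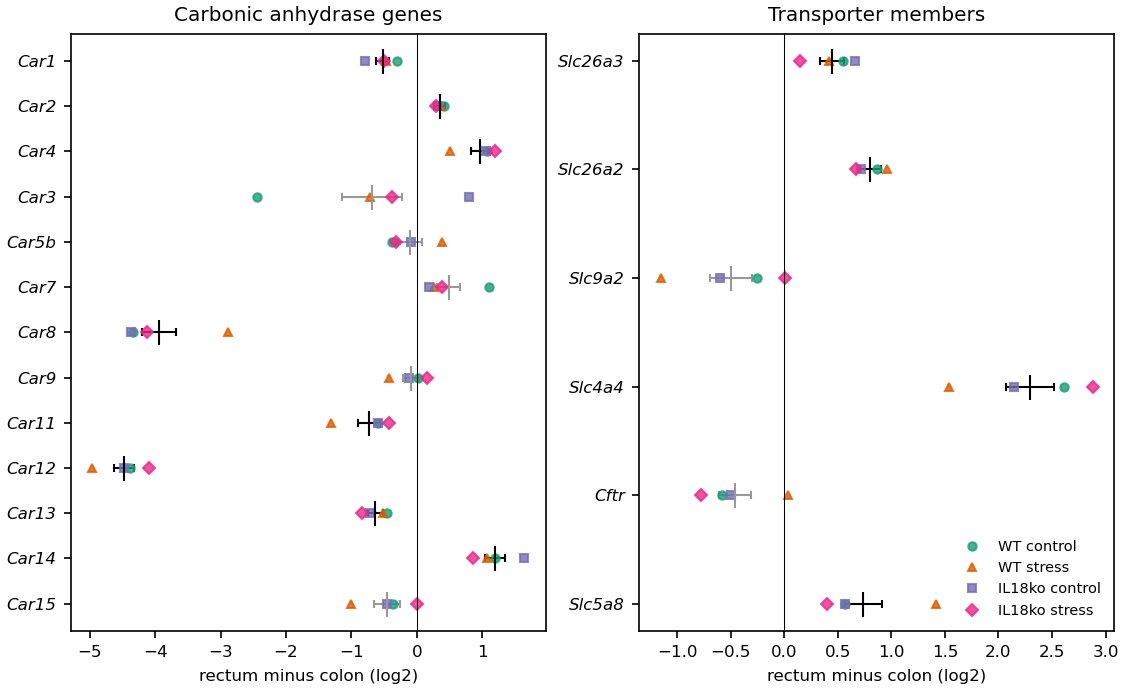
Rectum minus colon in log2 units for the 13 carbonic anhydrase genes tested (left) and the 6 transporter members (right). Coloured points are the 4 mouse groups, and ticks with bars are the mean and its moderated SE. Ticks are black where the adjusted p was under 0.05 and grey otherwise. Car12 and Car8 lie furthest to the left at -4.48 and -3.94, and Slc4a4 furthest to the right at 2.29.

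Both SLC26 anion exchangers were higher in rectum. Slc26a3 (chromosome 12), the apical chloride-bicarbonate exchanger known as DRA, lay at 3.57, 3.64, 3.56 and 3.95 in colon and at 4.12, 4.06, 4.22 and 4.09 in rectum. The IL18ko stress colon array lay nearest to the rectum arrays without crossing them. With quantile normalization it did cross, at 3.96 against 3.86 in WT stress rectum. Slc26a3 was 1.36-fold higher in rectum (0.44 ± 0.11, SE; adjusted p = 0.0291, limma); the call was lost without the WT control pair, without the IL18ko control pair (adjusted p up to 0.170) and without a trend of variance on level (0.0533).

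Slc26a2, an apical sulfate exchanger, lay at 2.47, 2.46, 2.52 and 2.81 in colon and at 3.33, 3.43, 3.23 and 3.48 in rectum. The sites did not overlap, and the IL18ko stress array was the highest at each site. Slc26a2 was 1.74-fold higher in rectum (0.80 ± 0.10, SE; adjusted p = 0.00166, limma) and stayed past the threshold without any 1 pair.

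Slc4a4 (chromosome 5), the sodium-bicarbonate cotransporter that loads bicarbonate across the basolateral membrane, had the largest difference of the members. It lay at -2.97, -2.92, -3.13 and -3.68 in colon and at -0.35, -1.39, -0.98 and -0.80 in rectum. Every rectum array was more than 1.5 units above every colon array. Slc4a4 was 4.90-fold higher in rectum (2.29 ± 0.23, SE; adjusted p = 0.000725, limma), with a range of 2.10 to 2.55 when single pairs were left out and of 1.69 to 2.33 over other processing.

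The 5 genes whose centred profile over the 8 arrays was nearest to that of Slc4a4, among 11791 genes, were Cela1, Ptpru, Hoga1, Aldh1l1 and Sh3rf2, at root mean square distances of 0.226 to 0.271 log2 units. Their differences between rectum and colon ran from 2.00 to 2.47. Nearest to Car1, the only member that was lower, were St6gal1 at 0.0507, then Tmem184a, Agpat2, Pxmp4 and Dhx29 at up to 0.111. St6gal1, a sialyltransferase, lay at 1.43, 1.36, 1.76 and 1.59 in colon and at 1.08, 0.89, 1.02 and 1.07 in rectum. Its highest array was the IL18ko control colon, as for Car1, but it was chosen by that likeness of profile. These likenesses rest on 8 arrays that share slides and scaling.

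Of the other SLC26 and SLC4 transporters, 15 of 18 had a probe and 9 were tested; 1 was higher in rectum, 2 were lower and 6 did not pass, with a median of 0.12. Slc26a4, the anion exchanger pendrin, was 1.84-fold higher and lay between -3.59 and -3.23 in colon and between -3.16 and -2.12 in rectum. Slc4a8, a sodium-driven chloride-bicarbonate exchanger, was 3.48-fold lower, and 1.75-fold lower with normexp. Slc4a2, the basolateral chloride-bicarbonate exchanger AE2, was 2.11-fold lower, with its lowest array, 1.01, in WT stress rectum; its call was lost without the WT control or the IL18ko control pair. The Slc26a4 call was lost without the IL18ko control pair.

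Slc9a2 (chromosome 1), an apical sodium-proton exchanger known as NHE2, lay at -0.88, -0.44, -0.86 and -0.99 in colon and at -1.14, -1.59, -1.46 and -0.99 in rectum. The WT stress arrays held both the highest colon and the lowest rectum value, and the IL18ko stress arrays were level. The difference of -0.50 ± 0.20 (SE) did not pass the test (adjusted p = 0.107, limma), nor under any of 9 other settings.

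Of the other sodium-proton exchangers and the scaffold proteins that hold NHE3 at the apical membrane, 12 of 14 had a probe and 11 were tested; 2 were higher, 3 were lower and 6 did not pass, with a median of 0.09. Pdzk1, a PDZ scaffold, was well above background on all 4 rectum arrays and on no colon array, and was at least 3.12-fold higher in rectum, where the colon arrays were set at the lowest signal well above background on each (adjusted p = 0.00137, limma). That bound holds for the processed signal; with normexp background correction the fitted difference was 0.43, or 1.34-fold. Slc9a3r2, the scaffold NHERF2, was 2.27-fold lower. Pdzd3 was 1.47-fold higher, and Chp1, a cofactor of sodium-proton exchangers, was 1.30-fold lower. The Pdzd3 call was lost in 4 of 9 other settings and that of Chp1 was kept in 4 of 9. Each was kept in only 1 of the 4 fits that left out a pair. Other Chp1 probes did not pass (adjusted p = 0.139 and 0.122, limma).

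Cftr (chromosome 6), the cyclic AMP-gated chloride and bicarbonate channel, was read by 10 spots of 1 probe on every array. It lay at 1.30, 1.40, 1.19 and 1.39 in colon and at 0.72, 1.43, 0.69 and 0.61 in rectum. On this probe the WT stress rectum array was the highest of the 8, while the other rectum arrays were below all colon arrays. The standard deviation of the 10 spots within an array, a measure of spot noise only, ran from 0.0431 to 0.108. The difference of -0.46 ± 0.15 (SE) did not pass the test (adjusted p = 0.0639, limma); without the WT stress pair it was -0.62 with an adjusted p of 0.00196, and it also passed with quantile normalization (0.0377) and with the deposited ratios (0.0402). A second Cftr probe of 1 spot, also well above background on all 8 arrays, lay at -4.48, -5.02, -5.22 and -5.20 in colon and at -5.28, -5.45, -5.72 and -5.57 in rectum. On it the WT stress rectum array lay amid the other rectum arrays, and all 4 were below the colon arrays, so the probes disagree on that array. Its difference of -0.52 ± 0.19 (SE) did not pass either (adjusted p = 0.0846, limma).

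Of 16 other genes of chloride and bicarbonate secretion, 13 had a probe and 12 were tested; 3 were higher in rectum, 4 were lower and 5 did not pass, with a median of -0.25. Guca2a, the guanylin precursor whose peptide acts on CFTR through guanylate cyclase C, lay at 8.42, 8.52, 8.45 and 8.53 in colon and at 6.47, 6.62, 6.54 and 6.43 in rectum (-1.96 ± 0.08, SE; adjusted p = 2.69e-05, limma). Guca2b, the uroguanylin precursor, was 2.44-fold lower, and Prkg2, the cyclic GMP-dependent kinase of this pathway, was also lower. Prkg2 was well above background on 4 of 4 colon arrays but 1 of 4 rectum arrays, so the size is not measured: the fitted difference was -5.68 and, with normexp background correction, -2.66. The receptor Gucy2c differed by -0.46 ± 0.23 and did not pass. The chloride channel Clcn2 was 1.56-fold lower. Vipr1, a receptor for vasoactive intestinal peptide, was 1.45-fold higher, Adcy6, an adenylate cyclase, 1.39-fold and the potassium channel Kcnq1 1.31-fold. Each of these 4 calls was lost without some of the pairs; that of Adcy6 was kept in only 4 of 9 other settings, and that of Kcnq1 was lost without a trend.

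Slc5a8 (chromosome 10), the apical sodium-coupled transporter of short-chain fatty acids, lay at 3.60, 3.62, 3.53 and 3.69 in colon and at 4.17, 5.03, 4.10 and 4.09 in rectum. The sites did not overlap, and the WT stress rectum array stood well above the other 3. Slc5a8 was 1.67-fold higher in rectum (0.74 ± 0.18, SE; adjusted p = 0.0232, limma). The difference was 0.51 without the WT stress pair and still passed; it did not pass without the WT control pair (adjusted p = 0.0810) or the IL18ko control pair (0.0725).

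Of 10 other genes of monocarboxylate and short-chain fatty acid handling, 9 had a probe and 7 were tested; 2 were higher in rectum, 2 were lower and 3 did not pass, with a median of -0.28. The proton-coupled carriers Slc16a1 and Slc16a3 were 1.48-fold and 1.81-fold higher, both calls being lost without the WT control or the IL18ko control pair. Slc16a7, another proton-coupled carrier, was 4.26-fold lower, and 2.74-fold lower with normexp. Ffar2, a receptor for short-chain fatty acids, lay between 2.47 and 2.85 in colon and between -1.60 and -1.35 in rectum (-4.17 ± 0.11, SE; adjusted p = 5.51e-06, limma). Among sodium pump subunits, Atp1b1 was 1.34-fold higher, a call kept in 5 of 9 other settings and in 1 of 4 fits that left out a pair. Atp1b3 differed by -0.13 ± 0.11 (SE) and did not pass.

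**Figure D3:**
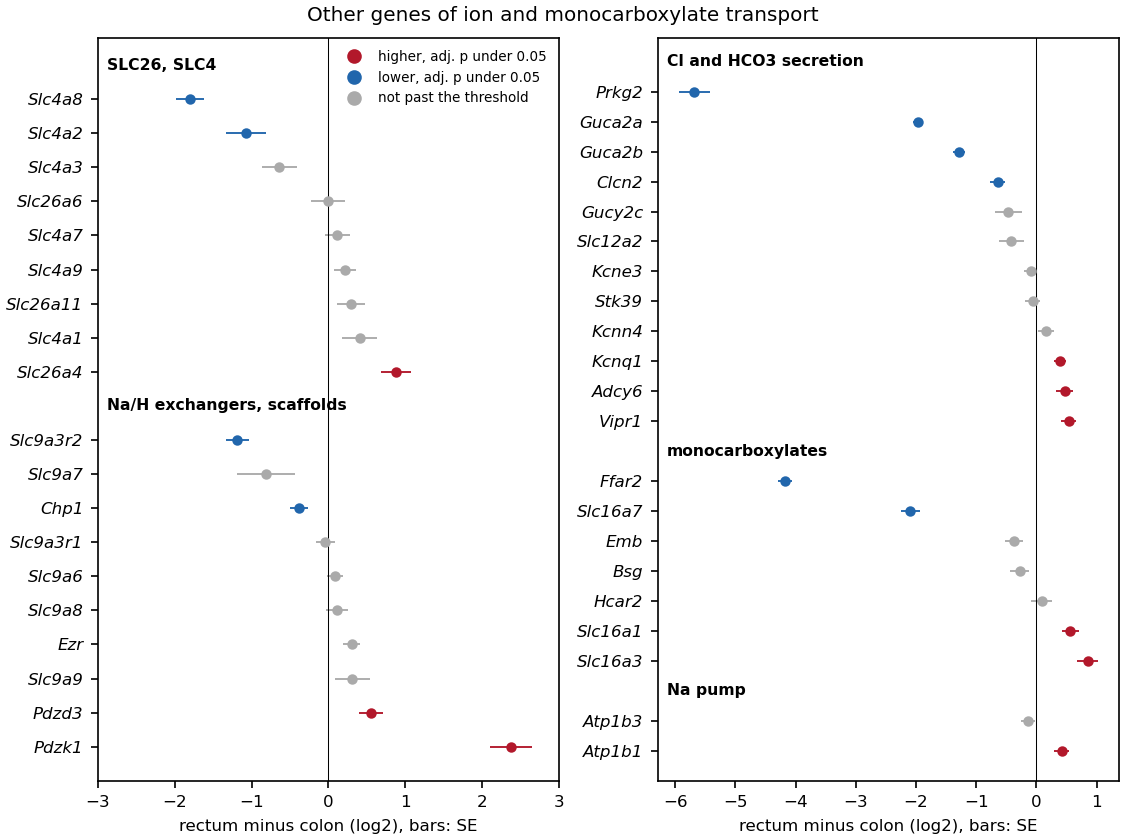
Rectum minus colon in log2 units, with bars of the moderated SE, for tested genes of the 5 lists beside the carbonic anhydrases. Red marks genes higher and blue genes lower in rectum at an adjusted p under 0.05, and grey the rest. Ffar2 lies far to the left at -4.17; the points of Prkg2 and Pdzk1 are fitted values that give no size, since 3 of 4 rectum arrays of Prkg2 and all 4 colon arrays of Pdzk1 were not well above background.

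Surface colonocyte markers were divided between directions. Of 10 tested, 5 were lower in rectum (Krt20, Ceacam1, Tmigd1, Slc51a and Slc51b), Ceacam20 was higher and 4 did not pass, among them Aqp8, a water channel of surface cells, at -0.03. Their summed level ranged from 712 to 879 in colon and from 663 to 805 in rectum. Slc51a, a bile acid carrier subunit, was at least 48.3-fold lower, with no rectum array well above background. As for Pdzk1, that bound holds for the processed signal. The part of a changed make-up of cells in the members' differences was not tested.

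Genotype and housing were compared by limma over the 4 means of the colon and rectum arrays of a mouse group, which leave 1 residual degree of freedom. The SE of these comparisons is moderated in the same way. Between IL18ko and WT, 0 of 9 members passed against 13.1% of all genes; 2 had an unadjusted p under 0.05, namely Cftr at -0.24 ± 0.11 and Slc5a8 at -0.25 ± 0.11 (SE, n = 4 means). The adjusted p ran from 0.168 to 0.927. The 13.1% depends on that fit: 3068 probes were called, against 32 with the 8 arrays taken as independent, where 0 members passed and 1 had an unadjusted p under 0.05. Car1 was 0.23 ± 0.12 higher in IL18ko and passed with quantile normalization (0.31, adjusted p = 0.0431) and with the deposited ratios (0.23, adjusted p = 0.0408), but not in the other settings.

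Of the 52 other pathway genes tested, 5 passed for genotype, near the share of all genes. Car3, a cytosolic carbonic anhydrase typical of muscle and fat, differed by 1.82 and was lost with the 8 arrays as independent (adjusted p = 0.0972). It lay at 1.56, 0.68, 2.00 and 2.09 in colon and at -0.88, -0.04, 2.80 and 1.71 in rectum. All 5 adipocyte markers were higher in IL18ko with Car3, by 0.52 to 1.95, as were 4 of 6 skeletal muscle markers. These marker calls rest on the same fit with 1 residual degree of freedom. The size of the largest, Lep, is not measured, since it was well above background on only 3 colon and 2 rectum arrays. The part of these markers' cells in the Car3 value was not tested. The other pathway genes that passed were Slc4a3 (0.71), Car8 (-0.46), Kcne3 (-0.43) and Pdzd3 (-0.38), and each was also lost with the 8 arrays as independent.

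For isolation stress against control, 0 of 9 members passed, against 0.0629% of all genes; 2 had an unadjusted p under 0.05, namely Slc4a4 at -0.34 ± 0.14 and Slc5a8 at 0.26 ± 0.11 (SE, n = 4 means), and with the 8 arrays as independent none had. Adjusted p ran from 0.453 to 0.985. Whether the tissue difference itself changed with genotype or housing was tested on the 4 rectum minus colon differences: 0 members passed for either, with 0 at an unadjusted p under 0.05, against 0.551% and 0.181% of all genes. The 4 differences leave 1 residual degree of freedom, and a p that misses the threshold does not show that the members were alike in both conditions.

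Single arrays were therefore set side by side, with no test. Past 1.5-fold, 0 of 9 members differed between stress and control in WT colon (4.6% of all genes), in IL18ko colon (8.73%) and in IL18ko rectum (3.71%). In WT rectum 3 of 9 did, against 23.7%: Slc5a8 was higher under stress by 0.86 and Cftr by 0.72, and Slc4a4 differed by -1.04. The second Cftr probe went the other way, from -5.28 in control to -5.45 under stress. In IL18ko rectum the same genes differed by -0.0078, -0.08 and 0.19. The 3 values all involve the WT stress rectum array.

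**Figure D4:**
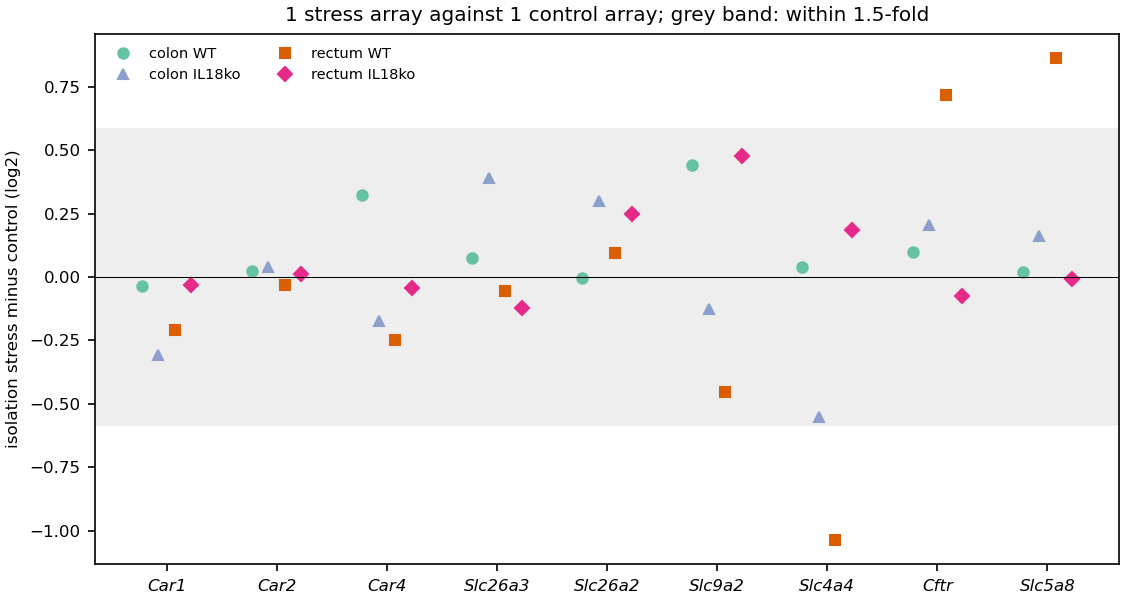
Log2 difference of 1 stress array minus 1 control array for each member in WT and IL18ko colon and rectum; the grey band spans differences within 1.5-fold. In WT rectum (squares) Slc4a4 lies below the band at -1.04 and Cftr and Slc5a8 above it at 0.72 and 0.86; all other points are inside.

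Between genotypes, 0 of 9 members passed 1.5-fold in control colon (7.12% of all genes) and 1 did in stress colon (15.9%), Slc4a4 at -0.76. In control rectum 1 did (10.3%), again Slc4a4, at -0.63. In stress rectum 4 of 9 did, against 31.3% of all genes: Slc9a2 was higher in IL18ko by 0.60 and Slc4a4 by 0.59, while Cftr differed by -0.82 and Slc5a8 by -0.94. The second Cftr probe lay at -5.45 in WT and -5.57 in IL18ko stress rectum. Slc4a4 was lower in IL18ko in 3 of these 4 pairs of arrays, counting all sizes, and higher in stress rectum. Car1, Car2, Car4, Slc26a3 and Slc26a2 stayed within 1.5-fold in all 8 of these single comparisons at this scaling. With quantile normalization Car1 lay at 6.82 in WT and 7.42 in IL18ko stress rectum, past 1.5-fold. At that scaling Slc9a2 (-1.52 and -1.01) and Slc4a4 (-1.33 and -0.82) were within 1.5-fold in the same comparison.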

How the data were processed

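RNA of 8 pools was hybridised to one-colour Agilent whole mouse genome arrays. Per the file headers, the signal intensity per spot was background-corrected by the authors' Feature Extraction 9.5.1.1 and not logged. The authors' deposited values, per the labels, are each probe's ratio over the WT control colon array, not logged; in log2 this correlated with the same ratio from the scanner values at r of 0.995 to 0.9997 over 18330 features. The scaling of that table is not given in the sources used here.

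Outlier spots were dropped, spots averaged per probe in log2, and the 75th percentile of each array subtracted. Probes were named by transcript accession (22850 probes, 16306 genes), the brightest tested probe standing for a gene, with 4 or more of the 8 arrays well above background as the filter. Tests used limma 3.58.1 in R 4.3.3 with a variance trend and were tested on simulated data. Alternatives were other scalings, background corrections and filters, no trend, independent arrays and left-out pairs or arrays. Text names all members and, per other list, up to 4 called genes a direction with the same sign in 4 of 4 pairs, and the 5 genes nearest in profile to the top and bottom member; others were chosen after seeing values. Members and lists were chosen with earlier results of these data known. As each group is 1 pool, p-values rest on the spread between mouse groups and on variance shared over probes. They do not measure the spread between mice of a group. Some genes of the lists are counted but not reported here by name.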

Additional observations from a re-analysis of the deposited data

Results flagged for a closer look

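Among the 4 colon arrays, the 4 rectum arrays and the 4 differences of each member, 6 of 27 sets had 1 value past Dixon's limit. The limit is on the gap to the nearest neighbour as a share of the range. It is passed by about 1 in 20 sets of independent, normally distributed values. The 27 sets share arrays, and the share over all genes was not computed, so the count is not a result about the members. The 4 arrays are different mouse groups, so such a value is not an outlier among replicates. In WT stress rectum, Slc5a8 (5.03) and Cftr (1.43) stood above and Car1 (7.16) and Car4 (5.45) below the other 3 rectum arrays. The Slc5a8 rectum minus colon difference of the WT stress pair, 1.42, stood above the other differences. Slc26a2 in IL18ko stress colon, 2.81, stood above the other colon arrays. The second Cftr probe did not stand apart in WT stress rectum (-5.45).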

How the results depend on the processing

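Between tissues, the direction of all 9 members held in every setting run; 3 to 8 were called when a pair was left out (3507 to 10733 probes), the fewest without the IL18ko control pair (3) and the WT control pair (4).

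For genotype, 3068 probes became 1941 with median centring, 5 without a background filter, 18 without a trend, 32 with 8 independent arrays and 19 with these and no trend; leaving out an array gave 6 to 3596 (3596 without WT stress rectum). Members called were 1 with quantile normalization and 1 with deposited ratios. For housing, 23 probes became 4 with quantile normalization, 2 with median centring, 57 with normexp, 180 with deposited ratios, 96 with all 8 arrays above background, and 0 in each of no filter, no trend, independent arrays and independent arrays without trend; left-out arrays gave 0 to 0.

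Uncalled values changed sign. For genotype, Car2 was -0.0409 with median centring, Car4 0.0815 with quantile normalization and -0.116 to 0.110 without single arrays, and Slc9a2 -0.251 to 0.0747. For housing, Car2 was -0.0413 with quantile normalization and -0.00716 to 0.0316 without single arrays, Car4 -0.167 to 0.0590, Slc26a3 -0.0191 to 0.130 and Slc9a2 -0.0646 to 0.270. The causes were not tested. Leaving 18 spots out of normexp and the fit of independent arrays without a trend were chosen after seeing the data. The tissue test pairs the arrays by mouse group; a block on replicate number could not be fitted, since each group has 1 array. The 8 arrays limit precision, and signals of Pdzk1 in colon and Slc51a in rectum give bounds only.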
